A study of Bos taurus with 16 samples.

Results

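CRYGS, PKDCC, SMPX, SDC2, EHD3 and NPL are 6 bovine genes with a high signal in the endometrium at oestrus and a far lower one 7 days later. They were chosen by that difference, as genes outside the secretory and immune families with a large fall between day 0 and day 7, so their day differences are given as a description with no test. The choice named no numeric cut-off. The array carries 8 probe sets with exactly 1 of these symbols, of 24016 probe sets that are not controls and 9155 genes with a symbol of their own. CRYGS, PKDCC, SMPX and NPL have 1 probe set each, and SDC2 and EHD3 have 2 each, told apart here by the endings of their identifiers (S1_at and S1_a_at for SDC2, A1_at and S1_at for EHD3). The NCBI Gene numbers in the annotation are 281724 (CRYGS), 539467 (PKDCC), 615975 (SMPX), 615785 (SDC2), 510183 (EHD3) and 507597 (NPL).

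The series asked how a mild inflammation of the uterus alters the lining and the early embryo, with Affymetrix bovine genome arrays. All endometrium came from superovulated cows, 49 in the series, brushed with a cytobrush 2 h before insemination (day 0) and just before the uterus was flushed for embryos (day 7). Healthy endometrium (HE) had 0 polymorphonuclear cells in the brush sample, and subclinical endometritis (SE) had more than 0. RNA came from pools: 3 HE and 3 SE pools on day 0, 2 HE and 3 SE pools on day 7, and, from the flushed embryos, 2 blastocyst pools whose donors were HE and 3 whose donors were SE at flushing, with 10 embryos in each. The protocol speaks of 3 pools per group; a further HE pool of day 7 endometrium and of blastocysts was not analysed here. The number of cows in an endometrium pool, and whether the same cows entered day 0 and day 7 pools, is not given in the labels. The tests treat the pools as independent, and the p-values below measure the spread between pools and not between cows.

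Oestrus is the oestrogen-dominated phase of the cycle, and by day 7 a corpus luteum has formed and progesterone dominates. A cytobrush lifts mainly the superficial lining of the uterus. The 6 genes belong to unrelated families. CRYGS encodes gamma-S crystallin, a structural protein of the lens. PKDCC encodes a tyrosine kinase that is secreted and acts on extracellular proteins. SMPX encodes a small protein of striated muscle. SDC2 encodes syndecan-2, a cell surface proteoglycan that carries heparan sulphate chains. EHD3 encodes an ATPase of the Eps15-homology domain family, which shapes membranes during endocytic recycling. NPL encodes N-acetylneuraminate pyruvate lyase, which breaks down sialic acid.

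The median log2 signal of an array was 4.18 to 4.30 in the 11 endometrium pools and 3.08 to 3.12 in the 5 blastocyst pools. Tests took in the probe sets whose log2 signal exceeded 4 in 2 or more pools of a tissue, 13421 in endometrium and 11014 in blastocysts. The day 0 SE pool of replicate 2 stood somewhat apart, with a mean correlation of 0.961 to the other day 0 arrays against 0.975 to 0.979 for the rest. The gap between the 3′ and 5′ control probes of GAPDH, a sign of RNA quality, was 0.0560 to 0.141 in day 0 HE and 0.273 to 0.389 in day 7 HE on the log2 scale, so it moved with the day. In SE it was 0.0264 to 0.578 on day 0 and 0.215 to 0.574 on day 7. The same gap for EIF4E moved with status, with 3.70 to 3.85 in day 0 HE and 3.88 to 4.27 in day 0 SE. On day 7 it was 3.67 to 3.91 in HE and 4.05 to 4.52 in SE. The gaps of GAPDH, cyclophilin and beta-actin overlapped between HE and SE on both days. Between the days in HE, those of cyclophilin and EIF4E overlapped. Beta-actin lay at -0.442 to -0.343 in day 0 HE and at -0.447 to -0.443 in day 7 HE. Epithelial markers were measured for 11 of 12 genes, at a mean log2 signal of 10.05 to 11.39 over the endometrium pools. KRT8, one of their defining keratins, stayed at or below 2.43 and was not among them. The blastocyst label was checked with IFNT2 and PAG2, trophoblast genes chosen after their values were seen. They read 8.79 to 10.76 and 6.46 to 8.33 in blastocysts and at most 1.58 and 2.33 in endometrium. The lowest value of an array was 2.20 in blastocysts and 0.57 to 0.62 in endometrium, so the scales differ.

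CRYGS was the gene with the widest difference between the days in HE. Its log2 signal was 11.53, 12.91 and 12.66 in the 3 day 0 HE pools and 2.47 and 2.79 in the 2 day 7 HE pools. In SE it was 9.77, 10.94 and 11.46 on day 0 and 3.07, 2.67 and 3.30 on day 7. Each day 0 pool was far above each day 7 pool, and the day 7 pools lay below the filter level of 4. The mean was higher on day 0 by 9.74 on the log2 scale in HE (limma standard error 0.50, n = 3 and 2), the largest such difference of all 13421 probe sets, and by 7.71 in SE (0.45, n = 3 and 3), rank 4. With day 7 counted at the filter level, a level chosen here and no limit of detection, this was at least 330-fold in HE and at least 106-fold in SE.

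PKDCC, the secreted kinase, varied little between the day 0 pools. Its log2 signal was 13.01, 13.03 and 12.91 in day 0 HE and 12.72, 13.05 and 12.85 in day 0 SE. On day 7 it was 5.95 and 5.36 in HE and 5.99, 5.72 and 6.36 in SE. PKDCC remained above the filter level on both days, so its fold differences are plain ratios. It was 161-fold higher on day 0 than on day 7 in HE (log2 difference 7.33, standard error 0.23, rank 8) and 116-fold higher in SE (6.85, 0.20, rank 10).

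SMPX, the small muscle protein, read 9.72, 9.93 and 9.63 in day 0 HE and 10.38, 8.81 and 10.58 in day 0 SE on the log2 scale. On day 7 it read 2.51 and 2.36 in HE and 2.42, 2.35 and 2.53 in SE. The day 0 SE pool of replicate 2 was the lowest day 0 pool, and the 5 day 7 pools were close together and below the filter. Its day 0 excess, the day 0 mean minus the day 7 mean on the log2 scale, was 7.32 in HE (standard error 0.42, rank 9), or at least 54.2-fold, and 7.49 in SE (0.38, rank 6), or at least 60.7-fold. Among smooth muscle markers, 3 of 10 were measured, with a mean log2 signal of 4.52 to 5.73 in day 0 HE and 4.52 to 7.08 in day 0 SE, and of 3.88 to 5.31 in day 7 HE and 3.82 to 5.87 in day 7 SE. ACTA2, smooth muscle actin, was also lower on day 7, by a log2 difference of -2.54 in HE (from 6.79 to 4.25, limma adjusted p = 0.00489) and -2.70 in SE (from 7.28 to 4.58, limma adjusted p = 0.00152). MYLK and TAGLN were not called in either. The other defining contractile genes MYH11, CNN1, DES, LMOD1 and CALD1 were not kept, with highest signals of 3.11, 2.76, 2.36, 2.03 and 3.30. The part of smooth muscle in the SMPX values was not tested.

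SDC2, the syndecan, was read by probe sets whose day differences were of unequal size. SDC2 S1_at gave 9.77, 9.76 and 9.34 in day 0 HE, 9.28, 9.28 and 8.84 in day 0 SE, 3.51 and 3.71 in day 7 HE, and 3.17, 3.04 and 3.36 in day 7 SE, as log2 signals. SDC2 S1_a_at gave 10.01, 9.76 and 9.85 in day 0 HE, 10.05, 9.99 and 9.30 in day 0 SE, 5.30 and 5.84 in day 7 HE, and 5.83, 6.10 and 5.75 in day 7 SE. Both had each day 0 pool above each day 7 pool, but only the first had its day 7 pools below the filter. For SDC2 S1_at the day 0 excess was 6.01 in HE (standard error 0.20, at least 49.2-fold) and 5.95 in SE (0.18, at least 35.1-fold), rank 29 in both. For SDC2 S1_a_at it was 4.30 in HE (0.25, 19.7-fold, rank 108) and 3.89 in SE (0.22, 14.8-fold, rank 172).

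EHD3, the recycling ATPase, also had probe sets of unequal response. The log2 signals of EHD3 A1_at were 8.80, 8.91 and 8.79 in day 0 HE and 8.67, 8.30 and 9.12 in day 0 SE, against 2.55 and 2.17 in day 7 HE and 2.30, 2.42 and 2.12 in day 7 SE. Those of EHD3 S1_at were 6.15, 6.18 and 6.18 in day 0 HE and 6.30, 5.08 and 6.80 in day 0 SE, against 3.72 and 3.74 in day 7 HE and 3.75, 3.74 and 3.74 in day 7 SE. The first covered a wide range, while the second spanned a narrow one whose day 7 values were almost identical. EHD3 A1_at was higher on day 0 by 6.48 in HE (standard error 0.23, rank 21, at least 28.5-fold) and by 6.42 in SE (0.21, rank 19, at least 26.0-fold). EHD3 S1_at was higher by 2.44 in HE (0.38, rank 491, at least 4.51-fold) and by 2.31 in SE (0.34, rank 588, at least 4.17-fold).

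NPL, the sialic acid lyase, had log2 signals of 9.93, 9.63 and 8.93 in day 0 HE and 8.86, 8.82 and 8.68 in day 0 SE. On day 7 they were 2.37 and 2.39 in HE and 2.40, 2.70 and 2.39 in SE. The 3 HE pools of day 0 spread more widely than the 3 SE pools and lay above them. The day 0 excess was 7.12 in HE (standard error 0.25, rank 13, at least 45.2-fold) and 6.29 in SE (0.23, rank 22, at least 27.6-fold).

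**Figure D1:**
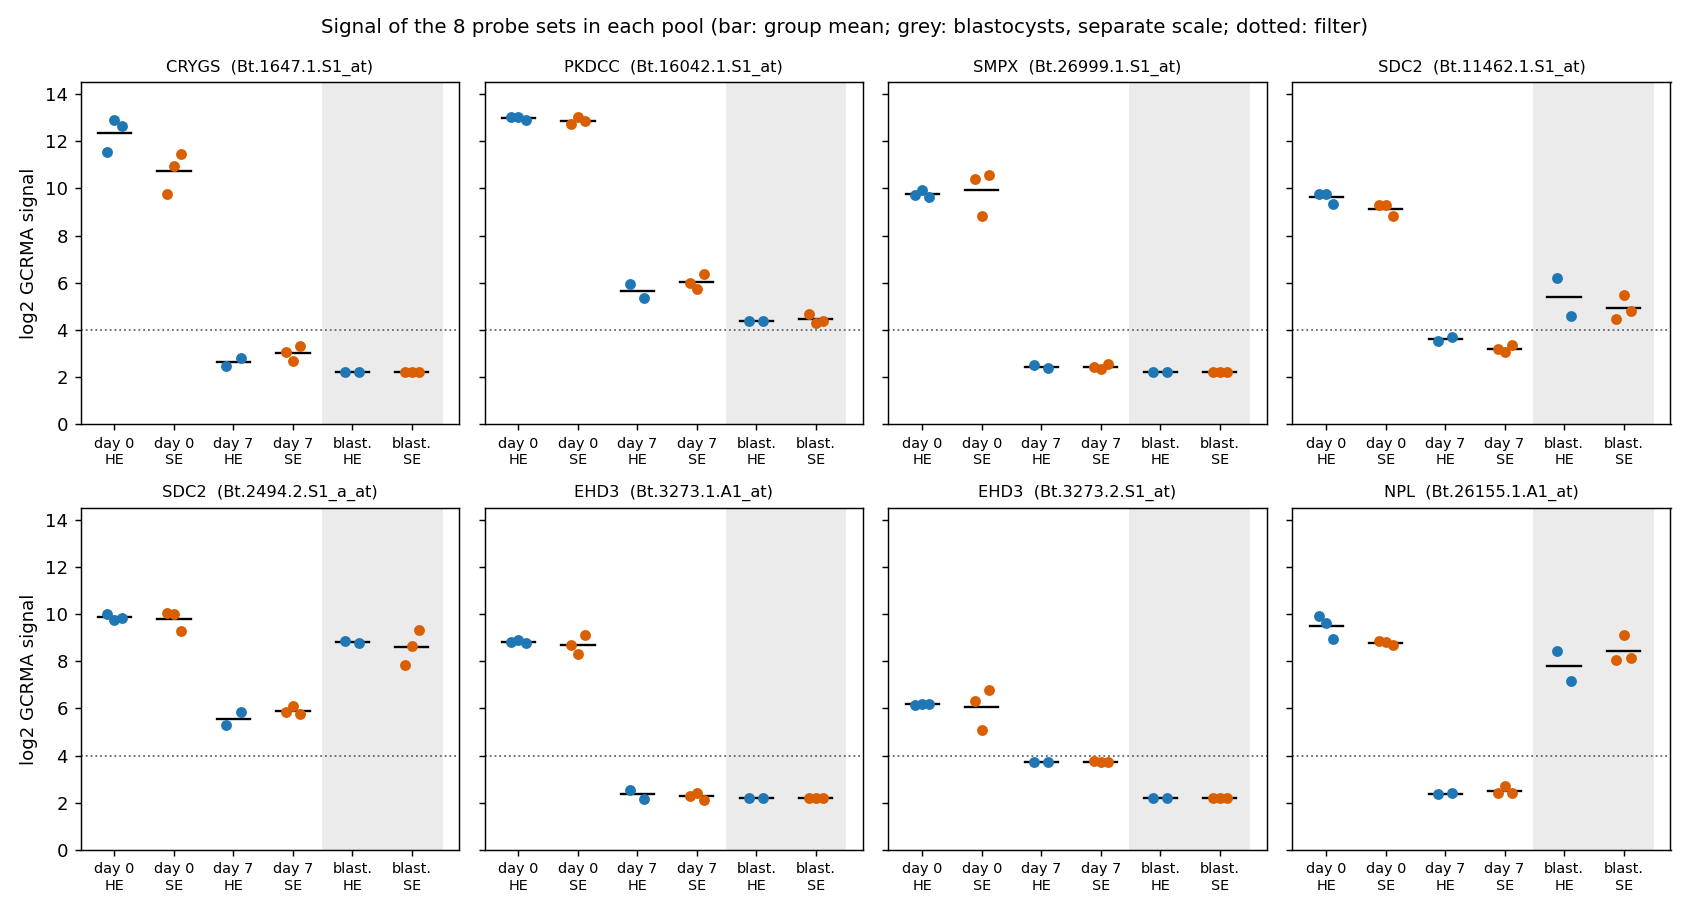
Log2 GCRMA signal of the 8 probe sets in each pool, 1 panel a probe set, with HE pools in blue, SE pools in orange and a bar at each group mean; the dotted line is the filter level of 4 and the grey area holds the blastocyst pools, whose scale is not compared with that of endometrium. In the 8 panels each day 0 endometrium pool sits above each day 7 pool, and 6 panels have their day 7 pools below the dotted line.

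Across the 8 probe sets the day 0 excess ran from 2.44 to 9.74 in HE, with a median of 6.80, and from 2.31 to 7.71 in SE, with a median of 6.36, on the log2 scale. Over all 13421 probe sets the median was 0.03 in HE and -0.01 in SE. An excess over 6 was reached by 29 probe sets in HE and 28 in SE, and one over 2 by 692 and 754. Ranked by size in HE, SDC2 S1_at lay between RCAN2, at 6.03, and CP, at 5.98, neither of them a member. The smallest gap between the lowest day 0 pool and the highest day 7 pool was 2.41 in HE and 1.33 in SE, both in EHD3 S1_at. Since 6 of the 8 probe sets passed the filter through their day 0 pools alone, these counts follow from how the genes were chosen. In RNA from brushed tissue, fewer cells of a type and less RNA per cell cannot be told apart.

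Cell type markers were also compared between the days. Of all 13421 probe sets, limma called 23.2% lower and 21.8% higher on day 7 in HE, and 24.1% and 26.0% in SE. With lists this short, nothing particular to the markers is read from the counts below. Of 11 epithelial markers measured, limma called 5 lower and 2 higher on day 7 in HE, and 8 lower and 2 higher in SE, at an adjusted p under 0.05. Their mean log2 signal was 10.88 to 11.13 in day 0 HE and 10.35 to 10.40 in day 7 HE, and 11.05 to 11.39 in day 0 SE and 10.05 to 10.15 in day 7 SE. The 3 ciliated cell markers measured of 12 gave 5.85 to 6.64 in day 0 HE, 6.96 to 8.30 in day 0 SE, 6.02 to 6.59 in day 7 HE and 6.52 to 6.64 in day 7 SE, with SPAG6 called lower in SE. Stromal markers (11 of 14) gave 7.10 to 8.66, 8.07 to 9.21, 7.35 to 9.09 and 7.34 to 9.22 in the same groups, with MGP called lower in SE. Lymphocyte markers (7 of 12) gave 5.86 to 6.28, 6.24 to 7.00, 6.88 to 7.32 and 6.02 to 7.95, with 3 called higher on day 7 in HE and 4 in SE. Macrophage markers (9 of 12) gave 5.21 to 5.54, 5.84 to 5.94, 5.99 to 6.39 and 5.57 to 6.92, with 4 called higher and 1 lower in HE and 2 and 1 in SE. Of 4 neutrophil markers measured, S100A12 was called lower in HE and S100A12 and LTF in SE. The one endothelial marker measured of 8, CLDN5, rose from 2.39, below the filter, to 6.60 in HE (limma adjusted p = 2.91e-05) and to 5.78 in SE (limma adjusted p = 4.28e-05). PECAM1, CDH5, VWF, TEK, KDR and ENG were not kept, with highest signals of 3.67, 2.12, 2.26, 2.89, 2.58 and 2.30. CLDN5 alone thus does not stand for endothelium. The one erythrocyte marker measured of 6, GYPC, was called higher in SE. HBB, HBA, ALAS2 and SLC4A1 were not kept, with highest signals of 2.85, 2.41, 2.40 and 2.13. The part of the measured markers and of the GAPDH gap in the members' day difference was not tested.

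The difference between the days was larger in HE than in SE for CRYGS, by 2.03 on the log2 scale, and for NPL, by 0.83. PKDCC followed with 0.48 and SDC2 S1_a_at with 0.42. The remaining probe sets differed by -0.17 to 0.13. The day 7 signals of CRYGS, NPL and SDC2 S1_at lay below the filter. With day 7 signals counted as at least the filter level, the difference was 1.64 for CRYGS, 0.71 for NPL and 0.49 for SDC2 S1_at, which had 0.07 before. Whether these differences exceed the spread was not tested, because the genes were chosen on both of the values they are made from.

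**Figure D2:**
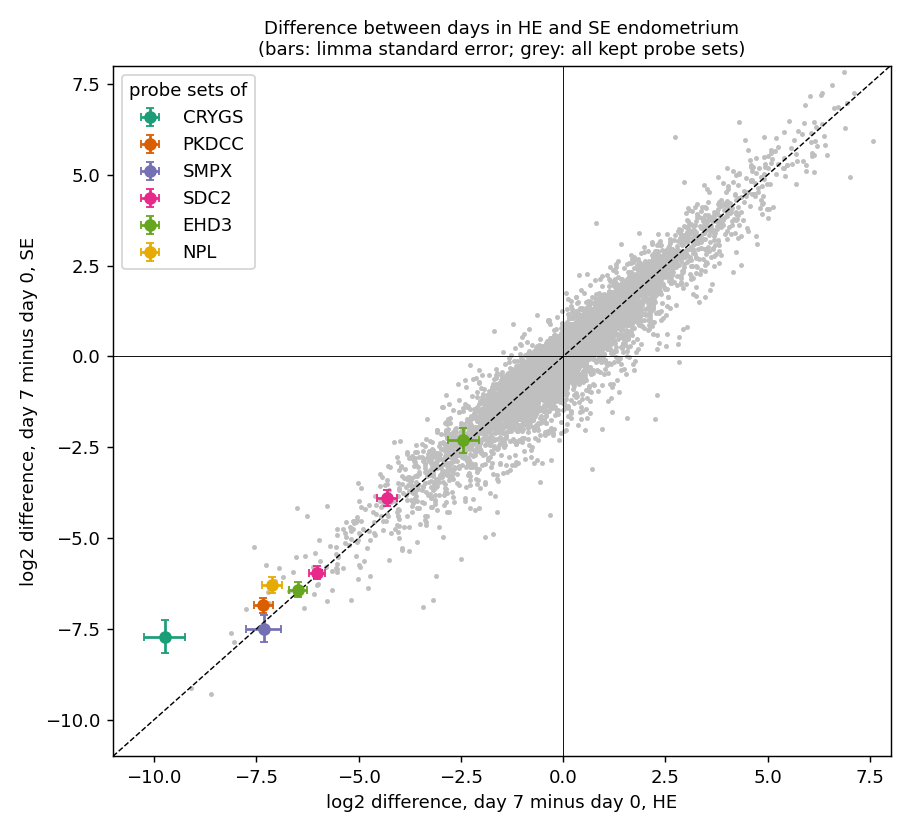
Log2 difference of day 7 minus day 0 in HE (x axis) and in SE (y axis) for each kept probe set (grey) and for the 8 probe sets (coloured by gene, with limma standard errors as bars); the dashed line marks equal differences. CRYGS, at a day 0 excess of 9.74 in HE and 7.71 in SE, lies furthest from the dashed line among the 8, and SMPX and EHD3 lie close to it.

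Status was then compared within a day, which asks whether the inflamed uterus held these transcripts at another level. The comparison itself did not choose the genes, but the endometrium signals it rests on gave the falls by which they were chosen. Its counts of members are thus a description and no independent support. On day 0 limma called 0 of the 8 probe sets between SE and HE at an adjusted p under 0.05, where 0.0224% of all probe sets were called (3 of 13421). Unadjusted p-values were under 0.05 for 3 of the 8 and for 1020 of all 13421.

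Those with an unadjusted p under 0.05 were CRYGS, NPL and SDC2 S1_at, each lower in SE. For CRYGS the day 0 mean was 10.72 ± 0.86 in SE (SD, n = 3) and 12.37 ± 0.73 in HE (SD, n = 3), a log2 difference of -1.64 (limma standard error 0.45, unadjusted p = 0.00440, adjusted p = 0.573). The highest SE pool lay 0.07 below the lowest HE pool, and leaving out 1 endometrium pool at a time gave -2.06 to -1.17. NPL averaged 8.79 ± 0.10 in SE and 9.50 ± 0.51 in HE (SD, n = 3 each), a difference of -0.71 (limma standard error 0.23, unadjusted p = 0.0111, adjusted p = 0.606), with 0.06 between the nearest pools. SDC2 S1_at averaged 9.13 ± 0.26 in SE and 9.62 ± 0.25 in HE (SD, n = 3 each), a difference of -0.49 (limma standard error 0.18, unadjusted p = 0.0236, adjusted p = 0.610), with 0.05 between the nearest pools.

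Each SE pool was below each HE pool in these 3 of the 8 probe sets, against 9.24% of all probe sets (1240 of 13421). Since the day 0 signals entered the choice of the genes, nothing is read from this count. The second SDC2 probe set did not share this, with -0.09 (standard error 0.22, limma adjusted p = 0.947). PKDCC differed by -0.11 (0.20, limma adjusted p = 0.926), EHD3 by -0.13 and -0.11 (0.21 and 0.34, limma adjusted p = 0.903 and 0.961) and SMPX by 0.16 (0.38, limma adjusted p = 0.945). Over the 8 the median was -0.12, against -0.06 over all probe sets.

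Neutrophil markers, 4 of 12 measured, had a mean log2 signal of 8.36 to 10.61 in day 0 HE and 10.46 to 12.67 in day 0 SE, and of 7.40 to 9.11 and 7.98 to 8.80 on day 7. The 4 were LTF, S100A12, S100A8 and S100A9, at 13.45, 10.99, 7.36 and 5.27 in day 0 HE. FCGR3A, MMP9, CAMP and CATHL1 were not kept, with highest signals of 2.47, 2.22, 2.70 and 2.13, so this mean is no measure of neutrophil number. The EIF4E control gap moved with status too, as given above. The part of these 4 markers or of the EIF4E gap in the CRYGS, NPL and SDC2 values was not tested. Of the 50 cell type markers measured, limma called 0 between SE and HE on day 0 at an adjusted p under 0.05. An unadjusted p under 0.05 was found for 8 of the 50, and for 1020 of all 13421 probe sets.

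The spread between pools was wider in day 0 SE than in day 0 HE for 7 of the 8 probe sets, NPL being the exception, and for 64.1% of all probe sets (8608 of 13421). SDC2 S1_at hardly differed, at 0.26 against 0.25. The SD was 0.97 against 0.15 for SMPX and 0.89 against 0.02 for EHD3 S1_at. The SE pool of replicate 2, which stood apart over all probe sets, was the lowest of its group in SMPX and both EHD3 probe sets. Without it the day 0 status difference was 0.72 for SMPX and 0.06 and 0.38 for EHD3, none of them past the threshold. That pool also had the widest 3′ to 5′ gaps of the day 0 pools. They were 0.578 for GAPDH, against 0.0264 to 0.141 in the others, and 4.27 for EIF4E, against 3.70 to 3.98. The part of RNA quality in the SE spread was not tested. SDC2 and NPL were lowest in replicate 3, and CRYGS and PKDCC in replicate 1.

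On day 7 limma called 0 of the 8 probe sets between SE and HE, as it did 0 of all 13421 (0%), and unadjusted p-values were under 0.05 for 0 of the 8 and 477 of all. In 6 of the 8 all day 7 pools lay below the filter, and they entered the test through their day 0 pools. For these 6 the test cannot decide whether status mattered on day 7. Differences of SE minus HE ran from -0.42 to 0.39 on the log2 scale, and each limma adjusted p was 1.00. PKDCC, with a mean above the filter on day 7, was 6.02 ± 0.32 in SE (SD, n = 3) and 5.65 ± 0.42 in HE (SD, n = 2), a difference of 0.37 (standard error 0.23). SDC2 S1_a_at was 5.89 ± 0.18 in SE (SD, n = 3) and 5.57 ± 0.38 in HE (SD, n = 2), a difference of 0.32 (standard error 0.25). SDC2 S1_at had each SE pool below each HE pool, as 8.33% of all probe sets did (1118 of 13421), but its pools lay below the filter level. The EIF4E control gap moved with status on day 7 as well, and its part in these differences was not tested.

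**Figure D3:**
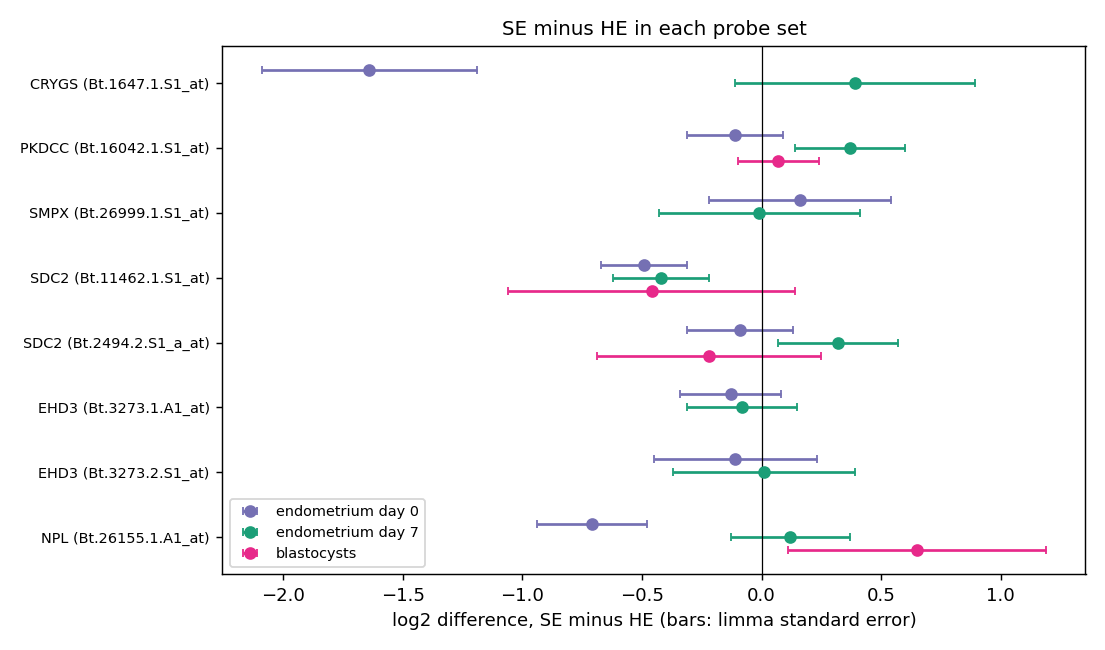
Log2 difference of SE minus HE (x axis) for each probe set in day 0 endometrium, day 7 endometrium and blastocysts, with limma standard errors as bars; probe sets not kept in blastocysts have no blastocyst point. CRYGS on day 0, at -1.64, lies furthest from 0, and none of the points passed the adjusted threshold.

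In blastocysts, a tissue and a set of arrays that the choice of genes did not use, CRYGS, SMPX and both EHD3 probe sets sat at the lowest value of those arrays, 2.20, on 5 of 5 arrays. That was 4 of 8 probe sets (50.0%), against 5957 of all 24016 (24.8%). PKDCC was just above the filter level, with log2 signals of 4.38 and 4.38 in HE and 4.69, 4.29 and 4.38 in SE. SDC2 and NPL were above it on all 5 arrays. SDC2 S1_a_at read 8.86 and 8.79 in HE and 7.85, 8.65 and 9.33 in SE, and SDC2 S1_at read 6.18 and 4.57 in HE and 4.47, 5.49 and 4.80 in SE. NPL read 8.42 and 7.16 in HE and 8.07, 9.11 and 8.12 in SE. In these probe sets the pools of SE and HE donors overlapped.

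Of the 4 probe sets kept in blastocysts, limma called 0 between SE and HE donors, as it did 0 of all 11014 (0%), with unadjusted p under 0.05 for 0 of the 4 and 1029 of all. The difference was 0.65 for NPL (standard error 0.54, limma adjusted p = 0.660), and leaving out 1 pool at a time gave 0.02, without HE replicate 2, to 1.28, without HE replicate 1. It was 0.07 for PKDCC (standard error 0.17, limma adjusted p = 0.884), -0.46 for SDC2 S1_at (0.60, limma adjusted p = 0.777) and -0.22 for SDC2 S1_a_at (0.47, limma adjusted p = 0.872). In blastocysts the 3′ to 5′ gap of GAPDH was 4.97 to 5.11 in HE and 5.47 to 5.85 in SE, wider than in endometrium and moving with donor status, and its part in these differences was not tested. Levels of the members were not compared between the tissues.

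The likeness of profiles was measured as the root mean square difference of log2 signals over the 11 endometrium pools, each profile centred on its own mean, with the brighter probe set standing for SDC2 and EHD3. Among the members, EHD3 and NPL were the closest pair, 0.40 apart, and PKDCC was 0.44 from NPL and 0.45 from EHD3. CRYGS and SDC2 were the furthest pair, 2.46 apart. SDC2 was read here by S1_a_at, whose day 0 excess (4.30 in HE, 3.89 in SE) was smaller than that of S1_at (6.01 and 5.95). The distances of SDC2 hold for S1_a_at alone, and S1_at was not placed in this way. All 6 genes were chosen for a large day difference, so likeness here also follows the size of that difference.

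Among all named genes, CRYGS was nearest to RBP4, a carrier of retinol, at 0.78, and to SERPINA1, a protease inhibitor, at 0.95. SMPX was also nearest to RBP4, at 0.55. RBP4 averaged 11.77 ± 0.31 in day 0 HE, 11.28 ± 0.04 in day 0 SE, 3.64 ± 0.20 in day 7 HE and 3.66 ± 0.13 in day 7 SE (log2 signal, SD, n = 3, 3, 2 and 3). PKDCC and NPL both had AHSG, which encodes the secreted glycoprotein fetuin-A, among their nearest 2 genes, at 0.45 and 0.37 and through different AHSG probe sets. EHD3 was nearest to RCAN2, a regulator of calcineurin, at 0.35. SDC2, through S1_a_at, had the closest match of all, HTRA1, a secreted serine protease, at 0.23, followed by ITPRIP at 0.33. HTRA1 was higher on day 0 by 4.15 in HE and 3.93 in SE.

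Genes of the families and pathways of the 6, without the members, were also compared between the days. The lists were drawn up with results of these arrays known, so their counts are no independent support for the members. Of 198 listed symbols, some of them older and newer names of the same gene, 125 were the sole symbol of a probe set on the array and 76 were measured. On day 7 limma called 24 of the 76 lower (31.6%) and 15 higher (19.7%) than on day 0 in HE at an adjusted p under 0.05, where 23.2% of all probe sets were called lower and 21.8% higher. In SE it called 24 lower and 15 higher as well (31.6% and 19.7%), against 24.1% and 26.0% of all. Their median log2 differences of day 7 minus day 0 were -0.20 in HE and -0.13 in SE, against -0.03 and 0.01 over all probe sets. Without the day 7 HE pool of replicate 1, 9 genes in place of 15 were called higher in HE. Without the day 0 SE pool of replicate 2, 23 were called lower and 13 higher in SE. Between SE and HE limma called 0 of the 76 on either day, with an unadjusted p under 0.05 for 3 on day 0 and 1 on day 7. Over all 13421 probe sets, 1020 and 477 had one.

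In the pathway of NPL, sialic acid metabolism, 5 of 15 measured genes were called lower and 1 higher on day 7 in HE, and 7 and 1 in SE. ST3GAL5, which adds sialic acid to the glycolipid lactosylceramide, fell by 2.82 on the log2 scale in HE (standard error 0.37, limma adjusted p = 1.98e-04) and fell by 3.09 in SE (0.33, limma adjusted p = 3.86e-05). ST6GALNAC2, which sialylates O-glycans, fell by 1.37 in HE (0.17, limma adjusted p = 1.27e-04) and fell by 1.02 in SE (0.15, limma adjusted p = 3.23e-04). RENBP, an epimerase of N-acetylglucosamine, rose by 2.40 in HE (0.23, limma adjusted p = 2.84e-05) and 2.47 in SE (0.21, limma adjusted p = 8.27e-06).

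Of the genes of heparan sulphate proteoglycans and their synthesis, the class of SDC2, 7 of 12 measured were called lower and 1 higher in HE, and 6 and 2 in SE. EXT2, a polymerase of the chains, fell by 1.93 in HE (standard error 0.22, limma adjusted p = 7.38e-05) and fell by 1.94 in SE (0.20, limma adjusted p = 2.48e-05). HS6ST1, which adds sulphate to them, fell by 1.36 in HE (limma adjusted p = 2.11e-04) and fell by 1.02 in SE (limma adjusted p = 5.23e-04). SULF2, which removes sulphate, fell by 1.51 in HE (limma adjusted p = 0.00462) and fell by 2.05 in SE (limma adjusted p = 2.96e-04). HPSE, the heparanase that cuts the chains, went the other way. Its log2 mean was 2.96 ± 0.36 in day 0 HE and 3.35 ± 0.11 in day 0 SE, below the filter, and 6.82 ± 0.24 in day 7 HE and 6.15 ± 0.90 in day 7 SE (SD, n = 3, 3, 2 and 3), with limma adjusted p = 5.99e-05 in HE and 1.81e-04 in SE. SDC3, the one other syndecan measured, fell by 1.12 in HE (limma adjusted p = 0.0127) and differed by -0.52 in SE (limma adjusted p = 0.136). NDST2 differed by 0.32 in HE (limma adjusted p = 0.281) and rose by 0.61 in SE (limma adjusted p = 0.0306).

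Among 30 measured genes of the EHD family and endocytic recycling, 5 were called lower and 8 higher in HE (16.7% and 26.7%), and 4 and 8 in SE (13.3% and 26.7%). Of all probe sets, 23.2% and 21.8% were so called in HE and 24.1% and 26.0% in SE. Nothing particular to this list is read from its counts. Of the other family members, EHD1 fell by 0.71 in HE (limma adjusted p = 0.0141) and fell by 0.73 in SE (limma adjusted p = 0.00593). EHD2 differed by -0.12 and 0.19 and EHD4 by -0.01 and -0.45 in HE and SE, none past the threshold. TFRC, the transferrin receptor that is a standard recycling cargo, fell by 1.66 in HE (limma adjusted p = 0.00110) and fell by 1.25 in SE (limma adjusted p = 0.00254). RAB11A, the GTPase of recycling endosomes, fell by 1.06 (limma adjusted p = 2.82e-04) and fell by 1.03 (limma adjusted p = 1.31e-04). The sorting nexin SNX5 rose by 1.35 and 1.40, the early endosome protein RABEP1 by 1.27 and 1.77, and the endocytic adaptor NUMB by 1.05 and 0.91, in HE and SE.

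Of 7 crystallins measured, 3 were called lower and 2 higher in HE, and 4 and 2 in SE. Those that changed most are not lens gamma-crystallins. CRYAB, a small heat shock protein, fell by 3.65 in HE (standard error 0.37, limma adjusted p = 3.94e-05) and fell by 3.57 in SE (0.34, limma adjusted p = 1.60e-05). CRYM, a protein that binds thyroid hormone, fell by 3.09 in HE (0.27, limma adjusted p = 1.35e-05) and fell by 2.07 in SE (0.24, limma adjusted p = 6.24e-05). CRYBG2 was below the filter on day 0, at 2.78 ± 0.02 in HE and 2.91 ± 0.21 in SE, and was 2.96 and 2.46 higher on day 7 (limma adjusted p = 6.19e-06 and 6.61e-06). CRYL1, an enzyme of sugar metabolism, rose by 0.60 and 0.66 in HE and SE.

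Of striated muscle genes, the setting for which SMPX is known, 8 of the 33 on the array were measured, with 3 called lower and 2 higher in HE and 2 and 1 in SE. ACTN3, an alpha-actinin of fast muscle fibres, was 6.44 ± 0.36 in day 0 HE and 6.89 ± 0.61 in day 0 SE and lay below the filter on day 7 (2.39 ± 0.11 and 2.51 ± 0.32), a log2 difference of -4.05 in HE and -4.39 in SE (limma adjusted p = 1.15e-05 and 2.30e-06). MYL3, a myosin light chain, fell by 2.89 in HE and fell by 2.56 in SE (limma adjusted p = 0.0292 and 0.0276), with a wide spread on day 0 (8.48 ± 1.48 and 7.74 ± 1.62, SD, n = 3 each). MYH7, a slow myosin heavy chain, rose by 4.79 in HE (standard error 0.24, limma adjusted p = 5.29e-07) and 5.17 in SE (0.21, limma adjusted p = 1.11e-07), to 13.11 ± 0.22 and 13.05 ± 0.13. TPM1, a tropomyosin, rose by 0.97 in HE (limma adjusted p = 0.0225) and differed by 0.51 in SE (limma adjusted p = 0.138).

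For the secreted kinases, the class of PKDCC, 1 of 17 listed symbols was measured, some of the 17 being older and newer names of the same gene. It was POMK, a kinase of the secretory pathway that acts on dystroglycan, which differed by -0.29 in HE and -0.46 in SE and was not called in either. Of 11 steroid hormone receptors and related genes 3 were measured. ESR1 and PGR, the oestrogen receptor alpha and the progesterone receptor, were on the list but not among the 3. ESR2, the oestrogen receptor beta, was below the filter on day 0, at 2.31 ± 0.18 in HE and 2.49 ± 0.27 in SE, and read 6.78 ± 0.34 and 6.89 ± 0.16 on day 7 (limma adjusted p = 4.59e-07 and 1.55e-07). NR3C1, the glucocorticoid receptor, differed by -0.96 in HE (limma adjusted p = 0.0642) and fell by 1.26 in SE (limma adjusted p = 0.0116). PGRMC1, a membrane component that binds progestins, fell by 0.45 in HE (limma adjusted p = 0.0465) and differed by -0.19 in SE (limma adjusted p = 0.299).

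**Figure D4:**
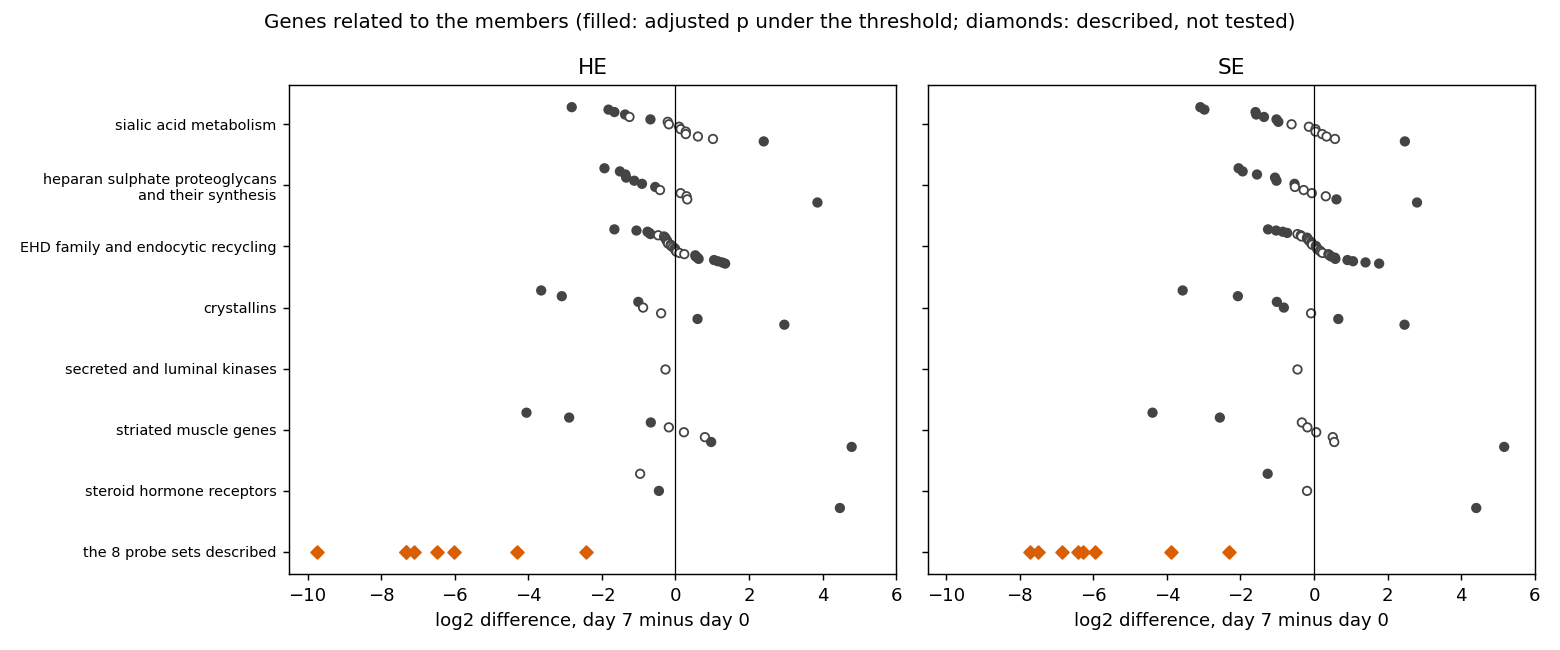
Log2 difference of day 7 minus day 0 in HE (left) and SE (right) for each measured gene of the 7 lists, filled where limma's adjusted p was under 0.05, with the 8 probe sets described here as diamonds, for which no test is given. Genes of each list of more than 1 gene lie on both sides of 0 in HE, with MYH7, ESR2 and HPSE furthest to the right, while the diamonds lie between -9.74 and -2.44.

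The genes next to the 6 on their chromosomes, in the order of the RefSeq annotation, were also compared between the days. Of 12 protein-coding neighbours 5 had a kept probe set, of which 4 were lower on day 7 in HE and 3 in SE at a limma adjusted p under 0.05, and 0 were higher. Among all probe sets 23.2% were called lower in HE and 24.1% in SE, and with 5 genes nothing particular to the neighbours is read from the count. MBTPS2, a protease next to SMPX, fell by 2.19 in HE (standard error 0.18, limma adjusted p = 1.02e-05) and fell by 1.70 in SE (0.16, limma adjusted p = 1.85e-05). PTDSS1, a phosphatidylserine synthase next to SDC2, fell by 1.25 in HE (limma adjusted p = 0.00121) and fell by 1.01 in SE (limma adjusted p = 0.00186). DHX9, an RNA helicase next to NPL, fell by 0.99 in HE (limma adjusted p = 8.46e-04) and fell by 0.82 in SE (limma adjusted p = 0.00111). TBCCD1, next to CRYGS, fell by 0.94 in HE (limma adjusted p = 0.0166) and differed by -0.39 in SE (limma adjusted p = 0.200), and SNRPG, a splicing protein next to EHD3, differed by -0.50 and -0.36 without passing. Neither neighbour of PKDCC had a kept probe set.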

How the data were processed

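RNA from 16 pools was amplified in 2 rounds from 15 ng and hybridised to Affymetrix bovine arrays, per the labels' protocols. The authors deposited log2 signals for 24128 probe sets. The submitters' processing notes name GCRMA and limma without version, role or order. Whether both tissues went through 1 joint normalization is thus not given in the sources used here.

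The 112 control probe sets were left out. Names came from the platform annotation. Neighbouring genes came from a RefSeq table (the build of the files is not stated), so no coordinates are printed. Group means were fitted with limma 3.58.1 in R 4.3.3, 1 fit per tissue, two-sided, with Benjamini-Hochberg adjustment over all probe sets above log2 4 on at least 2 arrays and a threshold of 0.05. The fit was tested on simulated data. A listed gene was read by its brightest kept probe set. The rule for naming took, per list, contrast and direction, up to 2 called genes of largest statistic, and the 2 genes most like each member; the EHD family, SDC3, POMK and gene neighbours were added. The members and lists were chosen with earlier results of these data known. Alternatives varied the filter, arrays fitted, weights, prior, normalization, replicate block, probe set rule and pools. Sequences were not used here. The number of arrays limits the precision. Tables and plots used Python 3.11.15, pandas 2.3.3 and matplotlib 3.10.9.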

Additional observations from a re-analysis of the deposited data

How the results depend on the processing

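The count of member probe sets called between SE and HE was 0 on day 0, day 7 and in blastocysts under each alternative that was run, including leaving out 1 pool at a time. The counts of related genes called between the days stayed within 1.5 times the main count except that 9 in place of 15 were called higher in HE without the day 7 HE pool of replicate 1. Leaving out 1 pool at a time gave 9 to 15 higher and 17 to 24 lower in HE, and 11 to 15 higher and 20 to 24 lower in SE.

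Correlations of the deviations of same-numbered pools ran from -0.272 to 0.239 over the 5 comparisons. The deviations were taken from the means of very few pools, which ties the correlations within a comparison to each other. Such correlations cannot decide whether pools of the same number were paired. In blastocysts the pool number in the titles differs from the replicate number of the HE samples; matched by pool number the correlations were -0.0899 and 0.0339. A block on the pool number, chosen after seeing the data, called 0 members and gave -0.04 for PKDCC and 0.16 for SDC2 S1_a_at, both turned in sign. With the replicate number as a block, 22 related genes were lower and 13 higher in HE and 24 lower and 13 higher in SE, and no member was called.

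The members' day differences kept their direction under the other settings, in 96 values in HE and 104 in SE. The members were chosen for that direction, so this is no support for it. The size moved, for PKDCC in HE from -7.63 to -7.04 with 1 pool left out at a time. Of the status differences, none of which was called, several changed sign. SMPX on day 7 was 0.02 with array weights. EHD3 S1_at was 0.16 on day 0 with array weights and -0.11 on day 7 with the replicate block. With 1 pool left out at a time the day 0 values ran from -0.16 to 0.72 for SMPX, -0.23 to 0.15 for SDC2 S1_a_at, -0.35 to 0.06 for EHD3 A1_at and -0.48 to 0.38 for EHD3 S1_at. On day 7 they ran from -0.08 to 0.07 for SMPX and -0.27 to 0.11 for EHD3 A1_at. In blastocysts they ran from -0.04 to 0.15 for PKDCC, -1.27 to 0.35 for SDC2 S1_at, -0.58 to 0.16 for SDC2 S1_a_at and, with no change of sign, 0.02 to 1.28 for NPL. SDC2 S1_at turned from -0.46 to 0.35 without HE replicate 1. The cause was not tested. Signals below the filter level on day 7 limit what a status difference on that day can show.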
